A study of Homo sapiens with 19 samples.

Results

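Narrow active promoters are described here: the starts of protein-coding genes that carried both H3K4me3 and H3K27ac in vehicle-treated MOLM-13 cells, within a short stretch of H3K4me3. A promoter was the transcription start site (TSS) of a GENCODE release 44 gene with 1 kb on either side, on hg38. Of 20015 protein-coding genes, 9293 had an H3K4me3 peak there in both DMSO lists, and 4858 of these also had an H3K27ac peak in both DMSO lists. After the DMSO H3K4me3 peaks were merged, 4254 genes (21.3% of all) had a region under 3000 bp, and these are the members. The members lay in 3462 distinct regions, because 1516 members (35.6%) shared a region with another member, so members are not independent of each other. The members were chosen by the DMSO peaks of H3K4me3 and H3K27ac and by the width of H3K4me3, so those values are given as a description without a test. The H3K4me2 lists were not used in the choice.

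MOLM-13 is a human acute myeloid leukaemia cell line. It was profiled by CUT&RUN, in which an antibody directs a nuclease that releases the chromatin fragments carrying a mark. The libraries used here had an antibody against H3K27ac, H3K4me2 or H3K4me3, and came from cells given Corin at 0.1 µM or the vehicle DMSO for 24 h, with 2 libraries for each treatment of each mark and 12 altogether. The labels write the dose of 0.1 µM for the DMSO libraries as well, and its meaning there is unclear. Nothing in the labels says that the 2 libraries of a group came from separate cultures, so every p below measures only the spread between these libraries.

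H3K4me3 is placed at active starts by the SET1 and MLL methyltransferase complexes, and H3K27ac by the acetyltransferases p300 and CBP. H3K4me2 typically flanks H3K4me3 at promoters and also marks enhancers. The CoREST complex joins the demethylase LSD1, which removes methyl groups from H3K4me1 and H3K4me2, with the histone deacetylases HDAC1 and HDAC2, and Corin is a compound that inhibits both activities.

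Further classes served for comparison. Broad promoters met the same rule with an H3K4me3 region of at least 3000 bp (604 genes in 444 regions). H3K4me3-only promoters had H3K4me3 in both DMSO lists and H3K27ac in neither (2393 genes in 2129 regions). The remaining 2042 promoters with H3K4me3 had H3K27ac in 1 of the 2 DMSO lists.

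The lists held 17599 and 19995 H3K27ac peaks in DMSO against 34424 and 30029 in Corin, 30896 and 32299 against 41152 and 40042 for H3K4me2, and 11104 and 11343 against 11757 and 11883 for H3K4me3. Beyond the minimum that the labels give for reads per library, the depth is unknown. Of 10 myeloid markers, 5 had both marks (SPI1, FLT3, CEBPA, CD33 and LYN), of which 3 were members and 2 were broad. The other 5 lacked 1 of the marks in at least 1 DMSO list. None of the 5 markers each of T cells, B cells, erythroid cells, epithelium and fibroblasts had H3K4me3 in both DMSO lists.

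The DNA of the members is shown first, because several short motifs stood in a larger share of members than of the other promoter classes. From hg38, 300 bases were read at every start, from 250 before it to 49 after it (base 0 being the start), for 20014 of the 20015 genes. The motifs were searched on both strands, 10 in all: NRF1 as GCATGCGC, ETS factors as CCGGAAG, YY1 as AAGATGGCG, CRE as TGACGTCA, NFY as CCAAT, SP factors as GGGCGG, ZNF143 as ACTACAATT, the E-box CACGTG, the TATA box TATAAA, and part of the REST site, TTCAGCACC. Between 0.645% and 2.28% of a motif's matches overlapped a match of another motif. A match is a run of letters and not evidence of a bound factor. The 5 promoters below show how the NRF1, ETS, YY1, CRE and ZNF143 letters lie in members that encode housekeeping enzymes, ribosomal proteins or zinc finger proteins. The last 2 had the largest H3K4me2 difference upward and the largest but 1 downward in the comparison further on; ZNF407, the largest downward, is not printed because its bases overlap an annotated exon. Each piece is 100 bases of hg38 without annotated exon, 5′ to 3′ on the gene's strand, and capitals mark every match of the 10 motifs.
MRPL17: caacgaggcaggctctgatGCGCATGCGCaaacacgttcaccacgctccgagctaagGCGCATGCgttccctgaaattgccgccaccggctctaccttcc
ZNF646: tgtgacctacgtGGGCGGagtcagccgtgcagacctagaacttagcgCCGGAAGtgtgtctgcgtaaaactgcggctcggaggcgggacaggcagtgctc
ZNF318: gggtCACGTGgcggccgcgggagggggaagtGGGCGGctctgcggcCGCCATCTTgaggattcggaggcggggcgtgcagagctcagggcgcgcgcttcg
LARS1: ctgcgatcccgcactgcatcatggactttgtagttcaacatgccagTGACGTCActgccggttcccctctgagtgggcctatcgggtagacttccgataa
ZNF317: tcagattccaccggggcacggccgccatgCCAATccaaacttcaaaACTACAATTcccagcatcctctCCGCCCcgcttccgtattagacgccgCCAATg
MYO1F: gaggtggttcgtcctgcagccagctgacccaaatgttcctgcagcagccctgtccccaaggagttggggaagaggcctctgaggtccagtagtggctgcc
CLPX: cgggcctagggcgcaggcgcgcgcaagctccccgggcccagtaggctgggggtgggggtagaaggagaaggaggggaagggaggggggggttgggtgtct
The pieces lie at chr11:6683341-6683440 on the minus strand (MRPL17, a mitochondrial ribosomal protein), chr16:31074266-31074365 on the plus strand (ZNF646) and chr6:43369702-43369801 on the minus strand (ZNF318). The next lie at chr5:146182758-146182857 on the minus strand (LARS1, the cytosolic leucyl-tRNA synthetase) and chr19:9140271-9140370 on the plus strand (ZNF317). The last are at chr19:8577578-8577677 on the minus strand (MYO1F, an unconventional myosin of blood cells) and chr15:65185343-65185442 on the minus strand (CLPX, a mitochondrial protease subunit). MRPL17 held the NRF1 letters in a stretch where matches of both strands overlap, and again further on. The pieces of MYO1F and CLPX held none of the 10 motifs.

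The ETS letters, bound in cells by the family that includes PU.1 and GABP, were more frequent in members than in the other classes. They stood in 1014 of the 4254 members (23.8%), in 14.8% of broad promoters, in 15.3% of H3K4me3-only promoters, in 4.33% of promoters without H3K4me3 in both lists and in 11.9% of all promoters. Promoters with H3K27ac in 1 of the 2 lists came close to the members, at 21.8%. Of the members, 9.83% had an ETS match centred in the 50 bases before the start, 6.93% in the 50 bases from the start on, and 1.79% in the 50 bases farthest upstream. Among all promoters the same 3 shares were 4.57%, 3.42% and 0.894%, so the concentration near the start was not confined to the members. The YY1 letters stood in 4.56% of members, 2.65% of broad, 2.01% of H3K4me3-only and 1.88% of all promoters. The NRF1 letters stood in 6.75% of members, 5.47% of broad and 3.78% of all promoters. The ZNF143 letters were rarer (0.752% of members, 0.390% of all), as were the CRE letters (3.62% and 2.29%). Promoters with H3K27ac in 1 of the 2 lists again came close, at 3.77% for YY1 and 6.02% for NRF1. For ZNF143 (0.833%) and CRE (3.87%) they stood above the members.

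The SP and TATA box letters did not follow the order of the ETS letters. The SP letters were less frequent in members (66.4%) than in H3K4me3-only promoters (73.9%), with 52.4% in all promoters. The TATA box letters stood in 5.55% of members, 7.79% of broad promoters and 10.8% of all promoters. The NFY letters (36.7% of members, 35.9% of all), the E-box (11% and 8.35%) and the REST letters (0.329% and 0.445%) differed less.

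Most members had CpG-rich starts, as did the other promoters with H3K4me3. With a GC content of at least 50% and an observed-to-expected CpG ratio of at least 0.6 as the limits, 81.5% of members, 80.6% of broad and 81.0% of H3K4me3-only promoters were CpG-rich, against 55.2% of all promoters and 32.5% of those without H3K4me3 in both lists. Within CpG-rich promoters alone, the ETS letters stood in 27.3% of 3466 members, 15% of 486 broad, 17.0% of 1938 H3K4me3-only promoters and 7.85% of 3489 without H3K4me3. The CpG-rich share went from 73.8% of members with a region under 1000 bp to 87.3% of those from 2500 to 3000 bp wide. The ETS share went the other way between these groups, from 26.4% to 17.9%, with 24.0%, 23.9% and 25.3% in the 3 groups between.

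**Figure D1:**
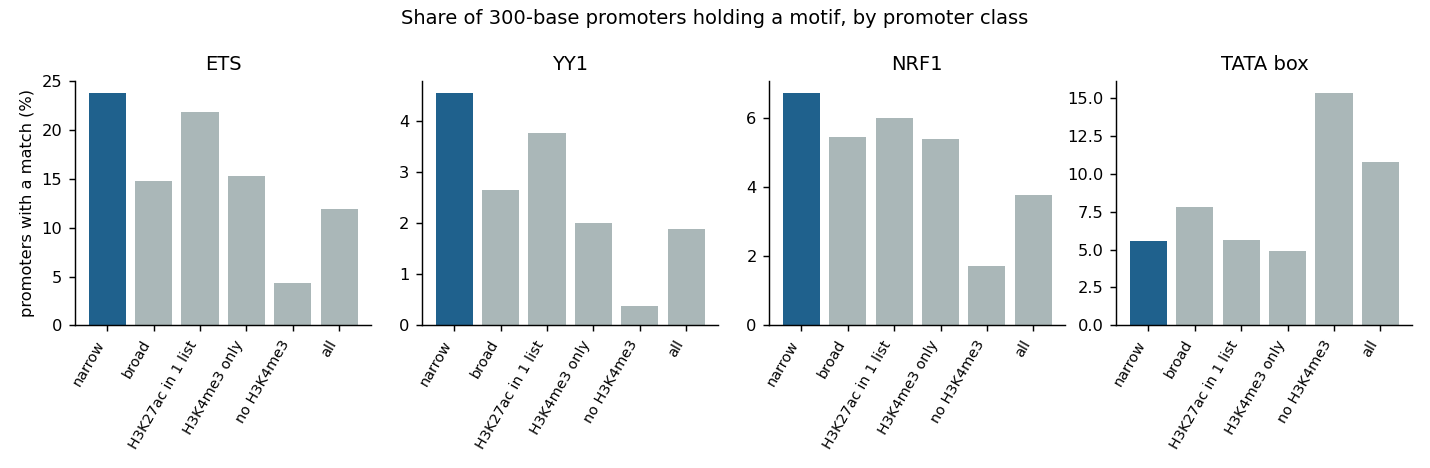
Share of promoters (%) whose 300 bases hold a match of the ETS, YY1, NRF1 or TATA box letters, for the members (blue) and 5 other sets (grey); each panel has its own axis, starting at 0. The members stand highest for ETS (23.8%), YY1 (4.56%) and NRF1 (6.75%), and below the set of all promoters for the TATA box (5.55% against 10.8%).

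The H3K4me3 region of a member was 1721.5 bp wide at the median, with quartiles of 1289 and 2181 bp and a range from 325 to 2998 bp. Where more than 1 region lay in the window, as in 224 members (5.27%), the widest set the width. The narrowest belonged to METTL2B, a tRNA methyltransferase (325 bp), to the histone H4 gene H4C2 (340 bp) and to the gene listed as ENSG00000267385 (350 bp). At METTL2B, H3K4me3 covered 538 and 564 bp of the core in DMSO, more than the region that set its width. METTL2B and the histone genes have near-identical copies elsewhere, and how the authors placed reads that fit several copies is not given in the sources used here. Just inside the limit were PPP3CA, a calcineurin subunit (2991 bp), and FRS3 and TOMM6, which share 1 region of 2998 bp. Just outside were TRIM25 (3004 bp), CTDSPL2 (3006 bp) and POLG2 (3006 bp). The limit fell where promoters were not sparse: 129 members had a region of 2800 bp or more, and 139 broad promoters had one under 3200 bp. Members were not unusual in gene length, with a median of 30.8 kb against 27.5 kb for all genes.

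Many members had another start close by on the opposite strand. A divergent start, up to 1 kb upstream, of another protein-coding gene was annotated for 798 members (18.8%), and of a lncRNA alone for a further 452 (10.6%). The 2 kinds together made up 29.4% of members, 36.6% of broad, 20.2% of H3K4me3-only and 15.6% of all promoters. The 1250 members with a divergent start had wider H3K4me3 regions, 1962 bp at the median against 1627 bp in the other 3004. They also had more even coverage: in the 4 libraries H3K4me3 covered 86.4 to 106 bp more in the 1 kb downstream of the TSS than in the 1 kb upstream, against 491 to 506 bp more in the members without one. For H3K27ac the excess downstream was 26.2 to 32.1 bp with a divergent start and 253 to 323 bp without.

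The marks had different shapes around the members' starts. H3K4me3 covered the TSS base itself in 74.3% and 80.7% of members in the DMSO libraries and 77.7% and 77.8% in the Corin libraries, and its summit lay 200 to 300 bp into the gene, at 92.9% to 94.4% of members. H3K27ac had its summit at the same distance, at 60.2% and 70.4% of members in DMSO and 83.2% and 80.3% in Corin. H3K4me2 dipped at the start and had a shoulder on each side. At the TSS base it covered 44.9% and 64.0% of members in DMSO and 49.2% and 47.1% in Corin, where DMSO replicate 2 stands apart. Upstream, 300 to 400 bp before the start, it reached 66.9% and 74.9% in DMSO and 74.3% and 68.1% in Corin. Downstream, 900 to 1000 bp into the gene, it reached 80.1% and 83.1% in DMSO and 84.1% and 78.9% in Corin. In broad promoters the downstream summit of H3K4me2 lay farther in, 1500 to 2100 bp from the start.

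**Figure D2:**
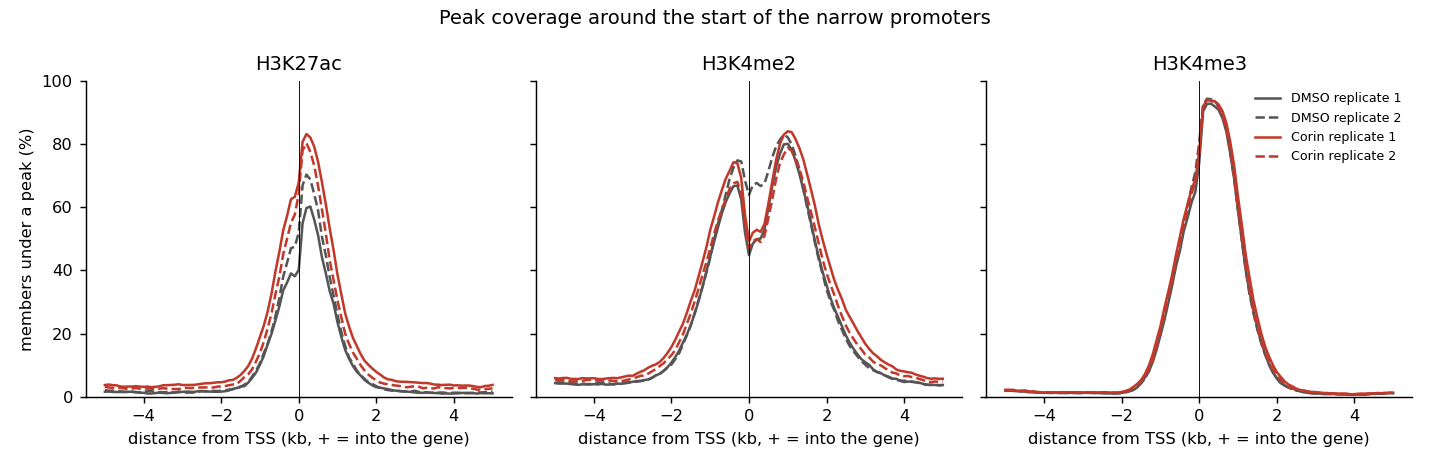
Percent of the 4254 members under a peak at each distance from the TSS (kb, positive into the gene), for H3K27ac, H3K4me2 and H3K4me3; grey lines are the 2 DMSO libraries and red lines the 2 Corin libraries, replicate 2 dashed. H3K27ac is higher in both Corin libraries near the start, H3K4me2 dips at the TSS, where DMSO replicate 2 stands highest (64.0%), and the 4 H3K4me3 lines nearly coincide.

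At the TSS base, H3K4me2 covered a larger share of members than of broad promoters and a smaller share than of H3K4me3-only promoters. Promoters with H3K27ac in 1 of the 2 lists lay close to the members, at 43.5% and 66.2% in DMSO and 50.9% and 51.1% in Corin. H3K4me2 covered the base in 40.1%, 55.3%, 41.1% and 37.6% of broad promoters (DMSO 1 and 2, Corin 1 and 2), so the members lay 4.81, 8.67, 8.14 and 9.50 percentage points above them. The mean difference was 7.78 points, in the same direction in 4 of 4 libraries, at p = 0.125 in an exact two-sided sign-flip test, the smallest p that 4 libraries allow. In H3K4me3-only promoters the base was covered in 56.1%, 75.2%, 66.7% and 64.6%. The members differed from them by -11.2 and -11.3 points in the DMSO libraries and by -17.5 and -17.5 points in the Corin libraries. The mean over both treatments was -14.4 (exact sign-flip p = 0.125), which lies between the values of the treatments. Without DMSO replicate 2, with the classes chosen again, that mean was -9.42 points. That second difference turned around when the peaks that chose the classes had to contain the TSS base: it was then 2.16 points (exact sign-flip p = 0.125) with 1119 members left, while the difference from broad promoters was 10.1 points. By the stricter choice the members thus had slightly more H3K4me2 at the TSS base than H3K4me3-only promoters.

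Under Corin, H3K4me2 coverage of the members was higher than in DMSO in the flanks of both libraries, while in the core the libraries of the treatments overlapped. The core is the TSS with 1 kb on either side, the flank the next stretch out to 5 kb on both sides, and the value is the mean bp per member under peaks. Core coverage was 1200.0 and 1376 bp in the DMSO libraries and 1297 and 1199 bp in the Corin libraries. The groups overlapped: the means were 1288 ± 125 bp (SD, n = 2) and 1248 ± 70.0 bp (SD, n = 2), and their log2 ratio was -0.05 (SD 0.16, exact permutation p = 0.667). Without DMSO replicate 2 the ratio was 0.05, and without Corin replicate 2 it was 0.01. Flank coverage was 1310.1 and 1301 bp in DMSO and 1688.5 and 1473 bp in Corin. Here both Corin libraries were higher, with means of 1305 ± 6.71 bp (SD, n = 2) and 1581 ± 153 bp (SD, n = 2), so that the Corin mean stood 1.21-fold above that of DMSO (log2 ratio 0.28, SD 0.14). By exact two-sided permutation p was 0.333, and since 2 libraries against 2 cannot give less, no comparison of this kind can pass 0.05. The log2 ratio was 0.17 without Corin replicate 1 and 0.21 with equal numbers of top-scoring peaks per list. It was 0.30 in the 1585 members with no other gene start within 6 kb, an alternative chosen after the data were seen.

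Counted promoter by promoter, higher flank coverage was about as frequent in the members as among all genes. Both Corin libraries exceeded both DMSO libraries in H3K4me2 flank coverage at 1920 of the 4220 members with any coverage there (45.5%), against 44% of all genes with coverage, and lower in 100 (2.37%, against 3.01%). In the core, 497 of 4246 members were higher (11.7%, against 18.8% of all genes) and 627 were lower (14.8%, against 10.5%). Within 5 kb of the TSS as a whole, 1310 of 4252 members were higher (30.8%, against 35.3%) and 220 were lower (5.17%, against 4.64%). Of the broad promoters with coverage, 5.81% were higher and 25.9% lower in the core, with a log2 ratio of -0.16; this difference from the members was not tested. Both core counts of the members use DMSO replicate 2, without which their core log2 ratio was above 0. Leaving out a Corin library, with the same 4254 members, gave 1630 (without replicate 1) and 2706 (without replicate 2) members higher within 5 kb, and 1221 and 372 lower. Leaving out a DMSO library also changed the members, to 5899 (without replicate 1) and 4933 (without replicate 2), and gave 2415 and 2814 higher and 1404 and 554 lower. With 1 library left out, non-overlap is easier to meet, and the share of all genes was not computed for these settings.

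Relative to its DMSO level, the H3K4me2 flank of the members differed more under Corin than that of broad promoters. Broad promoters had 3218 and 3175 bp in DMSO and 3651 and 3284 bp in Corin, a log2 ratio of 0.12. The difference of the log2 ratios, members minus broad, was 0.16 with an SD of 0.032 (exact permutation p = 0.333, the smallest possible). In bp the classes hardly differed, at 275 bp per member and 271 bp per broad promoter. H3K4me3-only promoters had a log2 ratio of 0.30, from 853 and 900.5 bp to 1134 and 1021 bp. Over all protein-coding genes the log2 ratio was 0.28, and with H3K27ac in 1 of the 2 lists it was 0.29. The members thus lay at the value of all genes, and the broad promoters lay below it.

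Seen from the H3K4me3 region of each member instead of its TSS, the H3K4me2 difference lay outside the region. Averaged over the 3462 regions, H3K4me2 peaks covered 70.1% and 80% of the bp inside them in DMSO and 71.9% and 68.2% in Corin, so the groups overlapped. Of the 1 kb on either side, 46.4% was covered in each DMSO library, and 58.7% and 51.3% in the Corin libraries. Inside the regions H3K27ac covered 44.9% and 51.9% in DMSO and 68.8% and 60.7% in Corin, and outside them 4.58% and 4.86% against 10.9% and 7.72%. The H3K4me2 difference outside was not confined to the members. There the means went from 57.8% in DMSO to 66.8% in Corin for broad and from 44.5% to 52.0% for H3K4me3-only promoters. Inside, they went from 73.3% to 66.9% in broad promoters, without overlap, and from 84.5% to 82.4% in H3K4me3-only promoters, with overlap.

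H3K27ac coverage of the members was higher in both Corin libraries than in both DMSO libraries, in the core and the flank. Core coverage was 736 and 849 bp in DMSO and 1131 and 999 bp in Corin, means of 793 ± 80.2 bp (SD, n = 2) and 1065 ± 93.0 bp (SD, n = 2), and the log2 ratio was 0.43 (SD 0.19). Flank coverage was 224 and 240 bp in DMSO and 507 and 370 bp in Corin, and the log2 ratio was 0.92 (SD 0.33). The rule required H3K27ac in DMSO, and the Corin lists are longer, at 34424 and 30029 against 17599 and 19995 peaks. With equal numbers of top-scoring peaks kept in each list, the log2 ratio was 0.28 in the core and 0.58 in the flank. Within 5 kb, 2234 members (52.5%) were higher in both Corin libraries and 53 (1.25%) lower, beside 50.6% and 0.662% of all genes with coverage, from which nothing is read because the rule used these DMSO lists. The core alone was higher in 46.6% (44.7% of all genes with coverage) and lower in 1.62% (0.932%), and the flank alone higher in 38.6% (41.5%) and lower in 2.42% (1.52%) of the members with coverage there. The same log2 ratios in broad promoters were 0.39 and 0.61, from 1023 and 1153 bp to 1488 and 1370 bp in the core. Over all protein-coding genes they were higher than in the members, at 0.64 in the core and 0.93 in the flank. With H3K27ac in 1 of the 2 lists they were 1.26 and 1.15. The DMSO H3K27ac lists set these classes, so nothing is read from the order.

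H3K4me3 coverage of the members hardly moved in the core. It was 1305 and 1344 bp in DMSO and 1367 and 1337 bp in Corin, with overlapping groups and a log2 ratio of 0.03 (SD 0.038). In the flank it was 396 and 399.5 bp in DMSO and 462 and 419 bp in Corin, and the log2 ratio was 0.15 (SD 0.10), or 0.075 without Corin replicate 1. Within 5 kb, 1093 members (25.7%) were higher in both Corin libraries and 9.21% lower, beside 24.8% and 8.95% of all genes with coverage. The core was higher in 18.6% (18.4% of all) and lower in 9.78% (9.36%), and the flank higher in 23.3% (23.8%) and lower in 8.11% (7.7%), so the members stood near the background throughout. Merged over the Corin lists, the regions were 1798 bp wide at the median against 1722 bp in DMSO, for the 4253 members with a region in both. Of these, 2666 (62.7%) were wider in Corin and 1570 (36.9%) narrower, with a median change of 54 bp and quartiles of -57 and 185 bp. The shares were close to those of all 9273 promoters with H3K4me3 in both DMSO lists and a Corin region, of which 60.6% were wider and 39.0% narrower, with a median change of 43 bp. The Corin H3K4me3 lists were also slightly longer, and the members were chosen by a DMSO width under the limit.

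**Figure D3:**
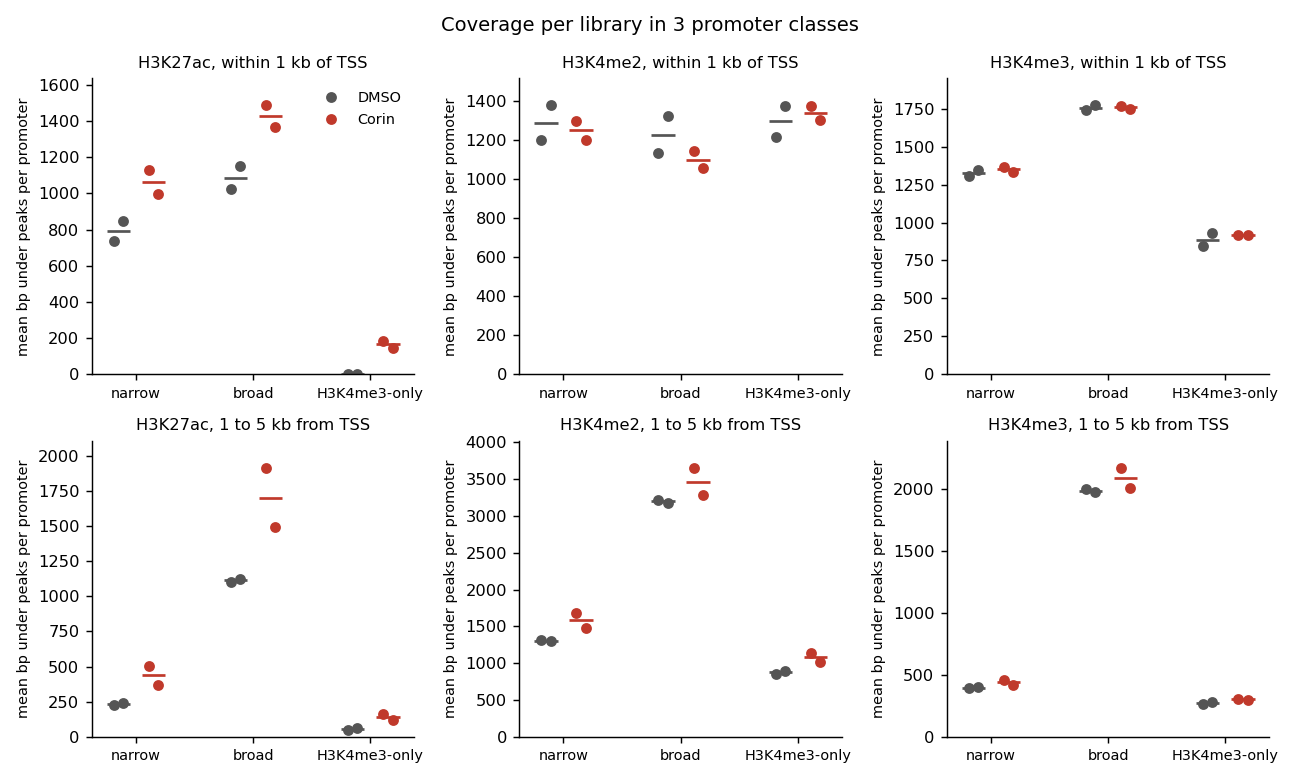
Mean bp under peaks per promoter in the core (within 1 kb of the TSS, top) and flank (1 to 5 kb, bottom) for each mark, in the members (narrow), broad and H3K4me3-only promoters; points are libraries (2 DMSO in grey, 2 Corin in red), bars their means, and each axis starts at 0. In the members H3K27ac core coverage is 736 and 849 bp in DMSO against 1131 and 999 bp in Corin, while the H3K4me2 core values overlap.

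Split by the width of the H3K4me3 region, which is part of the rule, the members had graded H3K4me2 ratios. In the 443 members with a region under 1000 bp, H3K4me2 flank coverage was 745 and 738 bp in DMSO and 1061 and 897 bp in Corin, a log2 ratio of 0.40. In the 497 members from 2500 to 3000 bp it was 2165 and 2158 bp in DMSO and 2632 and 2314 bp in Corin, a log2 ratio of 0.19. The 3 groups between had 0.34, 0.28 and 0.25, so the ratio was lower at each step. The difference in bp went the other way, at 238, 253, 270.0, 306 and 312 bp per member from the narrowest to the widest group, since the DMSO level was higher in wider groups. In the core the same 5 groups had 0.05, 0.00, -0.05, -0.09 and -0.13, with DMSO and Corin libraries overlapping in each. Without DMSO replicate 2 these were 0.11, 0.097, 0.045, 0.027 and 0.0062, so the order held while no value was below 0. H3K4me3 in the flank was graded as well, at 0.28, 0.24, 0.17, 0.12 and 0.09, and H3K27ac in the flank had 0.99, 0.95, 0.99, 0.90 and 0.82. The H3K27ac core ratios were flat, at 0.44, 0.42, 0.44, 0.42 and 0.42. These ratios have no test across groups.

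**Figure D4:**
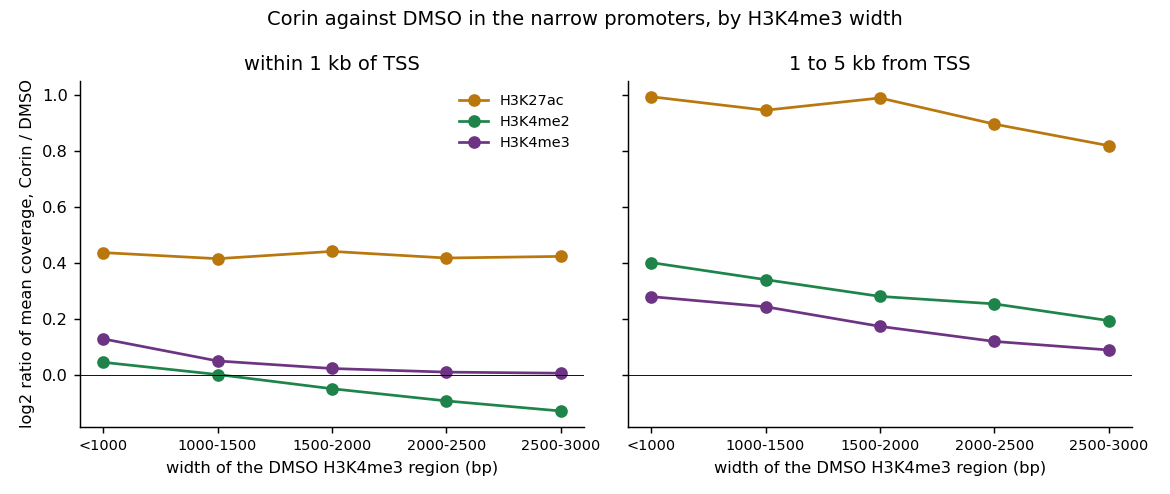
Log2 ratio of mean coverage, Corin over DMSO, in the members split by the width of their DMSO H3K4me3 region (443, 1111, 1236, 967 and 497 members from left to right), within 1 kb of the TSS (left) and 1 to 5 kb away (right); points are ratios of means over 2 libraries per treatment. The H3K4me2 flank ratio goes from 0.40 to 0.19 with width, while the difference in bp is larger in wider groups, and the H3K27ac core ratio stays between 0.42 and 0.44.

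Splitting the members by sequence changed the H3K4me2 ratios little. The 3466 CpG-rich members had H3K4me2 log2 ratios of -0.06 in the core and 0.29 in the flank, and the 788 others had 0.01 and 0.24. Members with the ETS letters had -0.07 and 0.32 for H3K4me2, and members without them -0.04 and 0.26. For H3K27ac the flank ratio was 1.08 with the ETS letters and 0.89 without, and the core ratio 0.40 and 0.44. The H3K4me3 flank ratio was 0.21 with the ETS letters and 0.14 without. CpG-rich members had an H3K27ac flank ratio of 0.96 and the others 0.83. These differences were not tested.

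Most members had the same marks in the Corin lists. H3K27ac was found in both Corin lists at 4152 members (97.6%), in 1 list at 96 and in neither at 6. The Corin H3K27ac lists are the longer ones, and with equal numbers of top-scoring peaks per list the share in both Corin lists was 82.2%. H3K4me3 was found in both Corin lists at 4248 members (99.9%), in 1 at 5 and in neither at 1. Since the rule required both marks in DMSO, presence could only go down. H3K4me2 was present in both DMSO lists at 4175 members (98.1%) and in both Corin lists at 4176 (98.2%).

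The 6 members without H3K27ac within 1 kb of the TSS in either Corin list were CCDC134, RAP2C, EIF2AK3, RPIA, RFESD and RTF2. EIF2AK3, the endoplasmic reticulum stress kinase PERK, and RPIA, an enzyme of the pentose phosphate pathway, share 1 region, where H3K27ac covered 245 and 584 bp of the core in DMSO and 0 bp in Corin. RFESD had 397 and 338 bp in DMSO, and RTF2 had 347 and 251 bp. CCDC134 had 714 and 262 bp, and RAP2C had 778 and 166 bp. The medians over all members were 655 and 803 bp in the DMSO libraries, so each of the 6 lay below the median in DMSO replicate 2, and CCDC134 and RAP2C lay above it in DMSO replicate 1. Within 5 kb, RAP2C still had 1055 and 569 bp in Corin and RTF2 had 247 bp in Corin replicate 1, while the other 4 had 0 bp. H3K4me2 was still there in Corin, with 1121 and 1774 bp in the core of EIF2AK3 against 1357 and 1668 bp in DMSO. SPATA24, a testis gene, was the member without H3K4me3 in either Corin list: it had 517 and 574 bp in DMSO, while its H3K27ac was 302 and 642 bp in DMSO and 1103 and 999 bp in Corin.

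Applied to the Corin lists, the same rule gave 6145 narrow promoters, of which 4034 were members by the DMSO lists (94.8% of the members and 65.6% of the 6145). Of the newcomers, 1483 had H3K27ac in 1 of the 2 DMSO lists, 507 were H3K4me3-only, 63 had no H3K4me3 in both DMSO lists and 58 were broad. Of the members, 113 were broad by the Corin lists. The H3K27ac lists of Corin are longer than those of DMSO, and the part of that in the count of newcomers was not tested.

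Single members reached larger differences than these averages. They were picked as the 5 largest in each direction and mark among members with no overlap between the Corin and the DMSO values, so their values are extremes by choice. For H3K4me2, MYO1F (chromosome 19, TSS at 8577577) had 2734 and 3257 bp within 5 kb in DMSO and 6235 and 6343 bp in Corin. GNA15, a G protein subunit of blood cells, had 3624 and 4089 bp against 6629 and 5984 bp. TBL2 had 1062 and 2005 bp against 4062 and 3668 bp, and TNFRSF10B, a death receptor for TRAIL, had 4516 and 4627 bp against 7117 and 6618 bp. BIN2, a membrane-bending protein of white blood cells (chromosome 12, TSS at 51324668), had 3764 and 4636 bp against 6693 and 6099 bp, and was also among the largest for H3K27ac, with 1366 and 1245 bp against 4949 and 4174 bp. The H3K27ac difference of BIN2 was 3256 bp with all peaks and 939.5 bp with equal numbers of top-scoring peaks. Its H3K4me3 region was 773 bp wide.

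Differences in the other direction were smaller. The largest for H3K4me2 was at ZNF407, with 3635 and 3760 bp in DMSO and 3406 and 1983 bp in Corin. CLPX had 1804 and 2334 bp against 1041 and 1262 bp. AFTPH had 3974 and 4216 bp against 3450.0 and 2998 bp. ATXN7L3B had 2542 and 3777 bp against 2421 and 2207 bp, and NDUFA4, a subunit linked to respiratory complex IV, had 1863 and 2332 bp against 1857 and 656 bp. Several of these differences rested on 1 library. That of ZNF407 was -291.5 bp without Corin replicate 2 and -1714.5 bp without Corin replicate 1. That of ATXN7L3B was -228 bp without DMSO replicate 2 and -1463 bp without DMSO replicate 1, and that of NDUFA4 -240.5 bp without Corin replicate 2 and -1441.5 bp without Corin replicate 1. The mean difference was 3294 bp at MYO1F and -1003 bp at ZNF407, the extremes of the members named by this rule.

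For H3K4me3 the largest differences upward were at BST2, MPDU1, PHF23, LYL1 and MYO1G. BST2, the interferon-inducible protein tetherin (chromosome 19, TSS at 17405630), had 1196 and 855 bp in DMSO and 2857 and 2757 bp in Corin, while H3K4me2 already covered its whole core of 2001 bp in the 4 libraries. LYL1, a transcription factor of blood stem cells, had 2761 and 3284 bp against 4398 and 4517 bp. MPDU1 had 971 and 1228 bp against 2619 and 2992 bp. Downward, ODR4 had 2796 and 2568 bp against 2110 and 1728 bp, and PMVK, a kinase of the mevalonate pathway, had 1764 and 1651 bp against 841 and 1378 bp. MEMO1, ZBTB33 and the histone gene H3C11, which has near-identical copies, made up the 5. With peaks of score 100 or more alone, the difference at LYL1 was 2441.5 bp in place of 1435 bp, and that at ZBTB33 was -148 bp in place of -614 bp. Without 1 library ZBTB33 ranged from -1074.5 bp (without Corin replicate 1) to -153.5 bp (without Corin replicate 2) and H3C11 from -1017.5 bp (without DMSO replicate 1) to -178.5 bp (without DMSO replicate 2), and PMVK was at -329.5 bp without Corin replicate 1.

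For H3K27ac the largest differences upward were at MYO1G, another myosin of blood cells, with 1980 and 1431 bp against 7755 and 5637 bp, and at LTB, a cytokine of the tumour necrosis factor family, with 4124 and 3684 bp against 8574 and 6880 bp. BIN2, STAR and DYSF followed, with 791 and 2816 bp against 5001 and 4919 bp at STAR, a cholesterol transporter of steroid-producing cells, and 989 and 2321 bp against 5100 and 4500 bp at DYSF, a membrane repair protein. Downward, ACADSB, an acyl-CoA dehydrogenase, had 1122 and 1201 bp against 684 and 558 bp, and KIAA0586 had 1626 and 2010 bp against 1384 and 1377 bp, a difference of -437.5 bp, or -245.5 bp without DMSO replicate 2. With peaks of score 100 or more alone, the Corin minus DMSO difference of ACADSB was 60 bp and that of RAP2C, -565 bp with all peaks, was 470 bp, so neither direction held.

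Gene groups were unequally represented among the members, whose share of all protein-coding genes was 21.3%. The lists with the highest shares were these: 47 of 77 mitochondrial ribosomal protein genes (61.0%), 15 of 20 cytosolic tRNA synthetase genes (75%) and 16 of 22 nuclear pore genes (72.7%) were members. Proteasome subunits (15 of 31), Mediator subunits (15 of 31), origin and MCM replication genes (9 of 19), ubiquitin E2 enzymes (15 of 34) and SF3 and Sm splicing proteins (8 of 19) were between 42.1% and 48.4%. CCT chaperonin (3 of 8), RNA polymerase II (3 of 12) and Fanconi anaemia genes (3 of 10) are small lists. Of 476 numbered zinc finger genes 111 were members (23.3%), 4 were broad and 204 lacked H3K4me3 in both DMSO lists. None of 415 olfactory receptor genes or 55 keratin genes was a member. These lists have no test, and they were drawn up with earlier results of these data known.

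**Figure D5:**
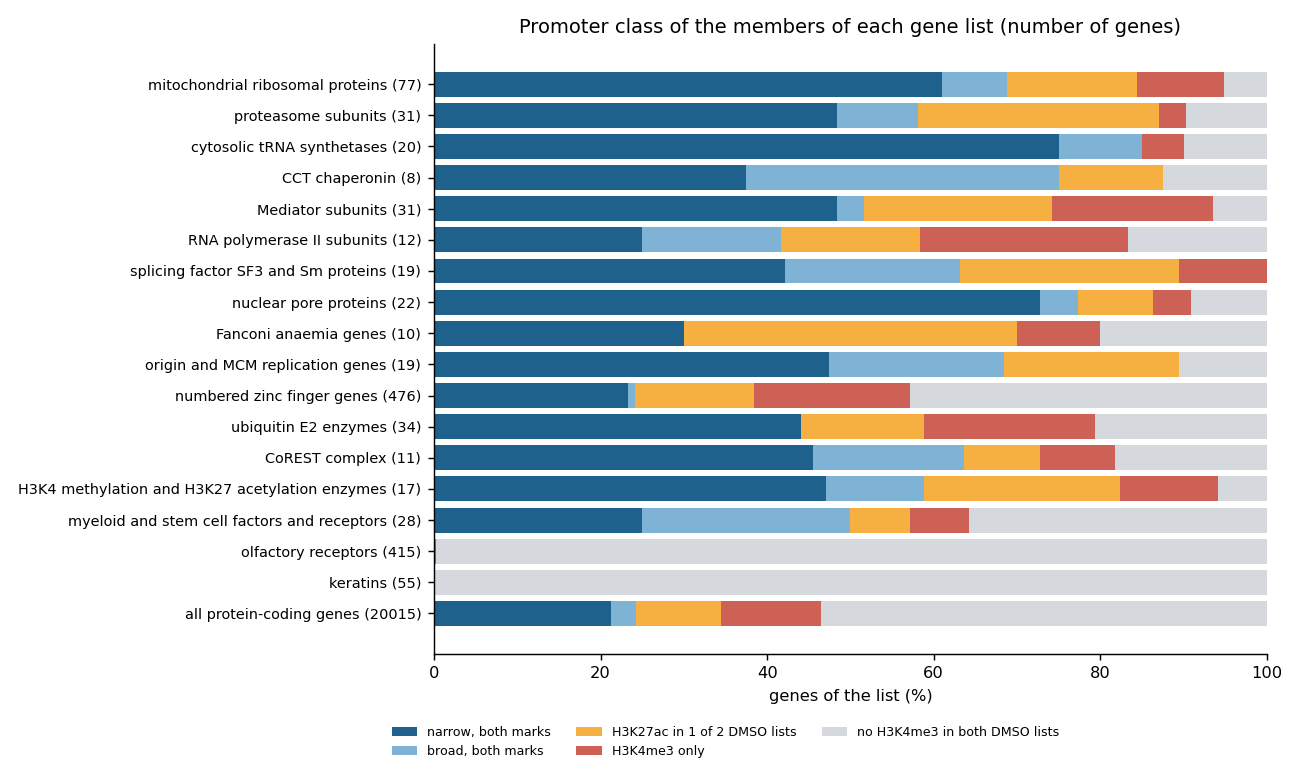
Share of each gene list (%, number of genes in brackets) in 5 promoter classes set by the DMSO lists; dark blue is the members. Members make up 75% of the tRNA synthetase genes, 61.0% of the mitochondrial ribosomal protein genes and 0 of the olfactory receptor and keratin genes, against 21.3% of all protein-coding genes.

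Under Corin the H3K4me2 medians of the housekeeping groups lay on both sides of that of all members, whose median difference within 5 kb was 172 bp, with 30.8% higher in both Corin libraries and 5.17% lower (35.3% and 4.64% of all genes). Of the 47 mitochondrial ribosomal members, 14 were higher and 1 was lower, with a median of 184 bp. Of the 15 tRNA synthetase members 7 were higher and 0 lower, with a median of 104.5 bp. LARS1, whose start is printed above, had 1160 and 914 bp in DMSO and 2152 and 1572 bp in Corin. Of the 16 nuclear pore members 5 were higher and 1 lower, with a median of 126 bp, and of the 111 zinc finger members 37 were higher and 5 lower, with a median of 120.5 bp. These counts lay near the share of all members or rest on few genes. Mediator members stood lowest among these groups at -91 bp, with 2 of 15 higher and 3 lower. The lists with 3 members each stood highest, at 977 bp for CCT chaperonin, 489.5 bp for Fanconi anaemia and 401.5 bp for RNA polymerase II genes. For H3K27ac the median of all members was 381.5 bp, with 52.5% higher. The groups ranged from 73 bp in nuclear pore members, of which 4 were higher, and 80.5 bp in Fanconi anaemia members to 500 bp in Mediator members, of which 8 were higher. Mitochondrial ribosomal members had a median of 337.5 bp with 22 higher, tRNA synthetase members 381.5 bp with 7 higher, and zinc finger members 323.5 bp with 59 higher.

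Of 28 listed factors and receptors of the myeloid lineage, 7 were members (25%, against 21.3% of all genes) and 7 were broad (against 604 of all 20015 genes). Of the other 14, 10 had no H3K4me3 in both DMSO lists, 2 were H3K4me3-only and 2 had H3K27ac in 1 list. The members were the receptors FLT3, CSF3R and CD33, the kinase LYN, the granule protease ELANE, and the transcription factors CEBPB and LYL1. The broad ones included SPI1, CEBPA, GFI1, LMO2, ETV6 and MYB. In 6 of the 7 members H3K4me2 was higher in both Corin libraries and in 0 lower, beside 30.8% and 5.17% of all members, with a median difference of 453 bp. H3K27ac was likewise higher in 6 and lower in 0, beside 52.5% and 1.25% of all members, with a median of 915.5 bp. FLT3, the receptor tyrosine kinase often mutated in this leukaemia, had a region of 2956 bp, close to the limit, and 3869 and 4193 bp of H3K27ac in DMSO against 6685 and 5441 bp in Corin. LYN had 4406 and 4327 bp of H3K4me2 in DMSO and 5773 and 5276 bp in Corin, without overlap. CSF3R, the receptor for G-CSF, had 2807 and 3129 bp against 3669 and 4565 bp. The gap was small at LYL1, with 5723 and 5722 bp against 5751 and 5778 bp, and at CD33, with 2878 and 2607 bp against 2962 and 2965 bp. CEBPB was the exception, with 2422 and 3491 bp against 3525 and 3294 bp, where the groups overlapped.

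The target of Corin was represented as well. Of 11 genes of the CoREST complex, 5 were members: KDM1A, which encodes LSD1, HDAC1, the scaffold gene RCOR1, and the zinc finger genes ZMYM2 and ZMYM3. H3K27ac within 5 kb was higher in both Corin libraries in 4 of the 5 (52.5% of all members), with a median difference of 716.5 bp, and H3K4me2 in 1 (30.8% of all members). KDM1A had 1074 and 297 bp of H3K27ac in DMSO against 1334 and 770 bp in Corin, with overlapping groups. ZMYM2 had 750 and 868 bp against 2596 and 2268 bp. HDAC2 had no peak of any mark within 5 kb of its annotated start in the 12 libraries. GENCODE places the start of a gene at its outermost annotated transcript, and other starts were not examined.

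Of 17 enzymes and subunits that write or remove H3K4 methylation or write H3K27ac, 8 were members: EP300, which encodes p300, the methyltransferase gene SETD1A with its partners ASH2L, CXXC1, DPY30, RBBP5 and WDR5, and the demethylase gene KDM5C. H3K4me2 was higher in both Corin libraries in 0 of the 8 (30.8% of all members) and lower in 2 (5.17% of all members), EP300 and RBBP5. EP300 had 3004 and 2994 bp in DMSO and 2703 and 2663 bp in Corin. RBBP5 had 2446 and 2654 bp against 2046 and 1944 bp. The median H3K4me2 difference of the 8 was -150 bp, on the other side of 0 from the 172 bp of all members. These counts and the median use DMSO replicate 2. At SETD1A, CXXC1, ASH2L and KDM5C both Corin libraries exceeded DMSO replicate 1, as in SETD1A with 490 and 1695 bp against 824 and 907 bp. EP300 and RBBP5 lay below DMSO replicate 1 as well. The median without DMSO replicate 2 was not computed. H3K27ac was higher in 3 of the 8 and lower in 1 (52.5% and 1.25% of all members), with a median of 158.5 bp against 381.5 bp.

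Members were found on every chromosome but in unequal shares. They made up 30.3% of the genes of chromosome 13, 28.3% of those of chromosome 8 and 27.1% of those of chromosome 6, and 6.67% of those of chromosome Y (3 of 45), 8.38% of those of chromosome X and 12.7% of those of chromosome 21. Within the H3K4me2 lists, the peaks of the members were not of special height: the best peak at a member stood at a median percentile of 75.4 and 72.4 of its list in DMSO and 76.1 and 72.8 in Corin, against 72.2, 72.7, 74.8 and 73.4 over all genes with a peak.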

How the data were processed

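The deposited data were 12 lists of MACS2 peaks, 1 per library, each with positions and a score. The authors' deposited score takes whole numbers from 50 up. Its definition is not given in the sources used here, so scores were compared within a list and not between lists. Trim Galore, Bowtie2, Picard and MACS2 and the builds GRCh38 and hg38 are named in the submitters' processing notes, without versions or settings. The other 7 of the 19 libraries (4 of retinoic acid plus Corin, 1 of LSD1 and 2 of IgG) were not analysed here, and no IgG background was subtracted in these steps. Reads were paired and 150 bp long, per the labels, and no interval that needs the depth was computed.

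Peaks were intersected with the TSS windows by at least 1 bp and summed in bp per gene and library, with Python 3.11.15 and numpy 2.4.6. Copies of genes shared by chromosomes X and Y were counted once. Coverage counts the length under peaks, not the signal within them. Libraries were the replicates in exact permutation tests (6 arrangements for 2 against 2) and exact sign-flip tests (16 arrangements). The coverage and class functions were tested on simulated peaks with planted classes. The SD of a log2 ratio is the root of the summed squared SDs of the log2 values in both groups.

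Members, gene lists and motifs were chosen with earlier results of these data known. Named genes were the 5 largest differences in each direction per mark among members with non-overlapping groups, members of the lists in alphabetical order and those of the myeloid, CoREST and histone enzyme lists, the promoters next to the width limit, and members that lost a mark. Sequences were those of listed members with the highest H3K4me3 score rank for a motif. The alternatives were a score of at least 100, equal numbers of top-scoring peaks, a peak on the TSS base, a width limit of 2000 bp, the rule applied to the Corin lists, 1 gene per region, each library left out, a replicate block, and, added after the data were seen, members without another gene start within 6 kb.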

Additional observations from a re-analysis of the deposited data

How the results depend on the processing

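The number of members was 2181 with peaks of score 100 or more, 1119 with peaks on the TSS base, 2790 with a width limit of 2000 bp and 1585 without another gene start within 6 kb (chosen after the data were seen). Leaving out 1 library gave 4254 to 5899. The H3K27ac log2 ratio was 0.64 in the core for members chosen on the Corin lists and 0.58 in the flank with equal numbers of peaks. With 1 library left out it was 0.31 to 0.52 and 0.67 to 1.13. The H3K4me2 core ratio reversed to 0.01 without Corin replicate 2 and to 0.052 without DMSO replicate 2, within a range of -0.14 to 0.052, and the cause was not tested. The H3K4me2 flank ratio kept its sign in every alternative, at 0.17 to 0.37 with 1 library left out. The number of members with higher H3K4me2 in both Corin libraries was 624 of 2181 (score 100), 303 of 1119 (TSS base), 2020 of 6145 (Corin lists) and 529 of 1585 (6 kb), beside 1310 of 4254 as reported. The number with lower H3K4me2 was 108 of 2181 (score 100), 358 of 4074 (equal numbers), 63 of 1119 (TSS base), 139 of 2790 (2000 bp) and 77 of 1585 (6 kb), beside 220 of 4254. With 1 library left out, where non-overlap is easier to meet, 1630 to 2814 were higher and 372 to 1404 lower. These counts also follow the number of members, and the share of all genes at each setting was not computed. At the TSS base, members minus H3K4me3-only promoters reversed to 2.16 points with peaks on the TSS base. Members keeping H3K27ac were 95.4% (score 100), 82.2% (equal numbers) and 99.2% (TSS base), and 92.5% to 99.3% with 1 left out. Those keeping H3K4me3 were 99.8% (equal numbers), 99.9% (TSS base), 99.8% (2000 bp) and 99.7% (6 kb), and 99.39% to 99.95% with 1 left out. For members chosen on the Corin lists both are 100% by construction and were not computed. With score 100 or more, the H3K27ac differences of RAP2C and ACADSB reversed to 470 and 60 bp.

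The labels do not say what a replicate number shares, and there were 2 pairs per mark. Same-numbered libraries deviated together with correlations of 0.228 (H3K27ac), 0.224 (H3K4me2) and 0.206 (H3K4me3) over 20015 genes, and of 0.310, 0.341 and 0.198 over the 4254 members. With a replicate block the H3K4me2 log2 ratio was -0.04 in the core (exact sign-flip p = 1), where the 2 pairs went opposite ways, at 0.113 and -0.200. The flank ratio was 0.27 (exact sign-flip p = 0.5), and members minus broad promoters in the flank 0.16 (exact sign-flip p = 0.5). Since 2 pairs allow no p below 0.5, the block could not have changed a call. Peak lists hold no read counts, so a shallow library and a weak mark cannot be told apart at a promoter without a peak.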
